A study of Homo sapiens with 20 samples.

Results

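The genes described are 9 small nucleolar RNA (snoRNA) host genes, SNHG1, SNHG3, SNHG5, SNHG7, SNHG8, SNHG12, SNHG15, SNHG19 and GAS5, out of 19808 genes with a named probe set on the array. They were taken by symbol from the platform annotation and had been chosen by a measured value: SNHG19 and other non-coding genes were higher in Caco-2 cells kept with Lactobacillus acidophilus NCFM than in medium. That comparison is therefore given as a description with no test for these genes. All 9 were found, with 16 probe sets between them, and all 9 reached the signal needed for testing in both array sets, SNHG3 in the probiotic set only through the groups in which it was high.

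A snoRNA host gene carries snoRNAs in its introns, and the snoRNAs are cut from the introns after splicing. Box C/D snoRNAs guide ribose methylation of ribosomal RNA and box H/ACA snoRNAs guide its pseudouridylation, so both act in ribosome production. The spliced exons of many host genes code for no protein, are often short-lived because translation exposes them to nonsense-mediated decay, and in many cases begin with a run of pyrimidines that links their translation to growth signals. Host transcripts such as GAS5 are known to change in level with growth state.

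The cells were Caco-2, a human colon carcinoma line that becomes enterocyte-like when confluent, here differentiated on inserts with a 5-day protocol. In the probiotic set of 14 arrays, labelled from 5 µg of RNA, 7 groups had 2 arrays each. Medium alone for 8 h was the control, and 3 groups received live bacteria for the same 8 h, with 20 to 100 bacteria added for each Caco-2 cell. The strains were NCFM, a Lactobacillus acidophilus, 420, a Bifidobacterium lactis, and Ls-33, a Lactobacillus salivarius. The other 3 groups received cell-free supernatant of one of these strains, grown in MRS broth with 1% glucose, for 24 h, diluted to 10% (v/v). The E. coli set had 6 arrays, labelled from 1 µg of RNA. Of these 3 had medium alone for 24 h and 3 had 5% cell-free supernatant of Escherichia coli O157:H7 grown in LB broth with 1% glucose. No group with broth alone was used here, and all cells, controls included, were of the same line and protocol. The probiotic samples were analysed in duplicate per the series' design, so p-values in that set reflect array-to-array spread, which may be technical.

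Values are log2 signals, and the number of arrays limits their precision. Array medians lay between 2.66 and 2.72, and within a group the arrays had correlations of r = 0.994 to 0.997 over all probe sets. All 11 enterocyte and epithelial markers were above the floor for testing, from CDX2 at 4.96 to EPCAM at 13.2 (mean log2 signal over 20 arrays). Of 10 leukocyte, endothelial and fibroblast markers with a probe set 5 were above it (COL1A1, PECAM1, COL3A1, CD14 and PDGFRB), while PTPRC and CD3E were below it. The 3' minus 5' signal of the beta-actin controls, a sign of RNA integrity and labelling, was 0.80 to 0.88 in 8 h medium, 1.08 to 1.54 with live bacteria, 1.02 to 1.11 with probiotic supernatants, 1.90 to 2.17 in 24 h medium and 2.12 to 2.23 with E. coli supernatant.

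By the RefSeq annotation (GRCh38.p14), 4 of the genes carry mainly box C/D snoRNAs. GAS5 holds 11 snoRNA genes, SNHG1 8, SNHG5 2 (SNORD50A and SNORD50B) and SNHG19 1 (SNORD60). The other 5 carry mainly box H/ACA snoRNAs: SNHG3 holds 2 (SNORA73A and SNORA73B, the U17 RNAs needed for cutting the ribosomal RNA precursor), SNHG7 2, SNHG12 4, SNHG8 1 and SNHG15 1. Only 2 of the 16 probe sets carried the host's symbol alone, and 14 also carried snoRNA symbols. All 58 of these snoRNA entries lie inside the host gene, so each probe set was read as its host, and spliced transcript, precursor and snoRNA were not told apart here.

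The sequence around the annotated start is shown for the 4 genes whose annotated start is C followed by at least 3 pyrimidines. Growth-regulated (5' terminal oligopyrimidine) transcripts are known by a start of C and an unbroken run of pyrimidines. The limit of 3 further pyrimidines was set here and is a loose one. The run of SNHG7 is only 4 bases long, so its listing does not make it such a transcript. Only the annotated start base was read, so starts elsewhere were not looked for, in GAS5, SNHG1 or any other gene. Each line gives 50 bases before the start and 50 from it, 5′ to 3′ on the gene's strand, from RefSeq (GRCh38.p14), with the unbroken pyrimidine run from the start in capitals. The windows are chr16:2155309-2155408 (minus strand) for SNHG19, chr1:28581824-28581923 (minus) for SNHG12, chr6:85678684-85678783 (minus) for SNHG5 and chr9:136728135-136728234 (minus) for SNHG7.
SNHG19: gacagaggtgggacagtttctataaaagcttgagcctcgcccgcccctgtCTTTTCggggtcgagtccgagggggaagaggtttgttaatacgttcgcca
SNHG12: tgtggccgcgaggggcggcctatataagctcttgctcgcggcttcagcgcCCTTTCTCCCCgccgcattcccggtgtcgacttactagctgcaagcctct
SNHG5: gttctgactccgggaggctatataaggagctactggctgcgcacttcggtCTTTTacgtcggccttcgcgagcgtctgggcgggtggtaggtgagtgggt
SNHG7: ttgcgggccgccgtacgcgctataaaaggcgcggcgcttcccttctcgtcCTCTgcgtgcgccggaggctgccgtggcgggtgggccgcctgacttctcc

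Of the 9 genes 8 had an entry in the promoter table. In 4 of these 8 the annotated start was C with 3 further bases each C or T, against 5.45% of 35116 annotated starts. This pattern was settled after the members' sequences had been seen, following a looser one, so the share is a description. Over the table's windows of 250 bases before to 50 after the start, read on both strands, TATAAA was in 3 of the 8 (SNHG1, SNHG7 and SNHG19) against 11.5% of all, CCAAT in 3 (GAS5, SNHG5 and SNHG19) against 34.6%, and CACGTG in 1 (SNHG7) against 7.26%. Of the genes with the pyrimidine start, SNHG19, SNHG12 and SNHG5 were higher with live bacteria. SNHG7 was lower on its main probe set, while its other probe set differed by 0.59 with NCFM and 0.65 with B. lactis 420. Whether the start bears on the response was not tested.

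With live NCFM bacteria, 8 of the 9 host genes were higher than in 8 h medium, without overlap between the arrays, and SNHG7 was lower. Over all genes tested, 31.8% were higher without overlap, and 64.8% did not overlap in either direction, as did all 9 host genes. The host genes' median log2 difference was 0.86, against -0.0059 for all genes tested. Because this comparison was used to choose the genes, these values are given with no test.

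Among the box C/D hosts SNHG19 showed the widest gap. It read 5.08 and 4.97 in 8 h medium, 6.94 and 7.11 with NCFM, 6.97 and 7.19 with B. lactis 420, and 7.03 and 6.97 with Ls-33. All 6 arrays with live bacteria lay well above both medium arrays, and the strains overlapped each other. Relative to medium the log2 difference was 1.99 ± 0.23 (SE, n = 2) with NCFM, 2.05 ± 0.23 with B. lactis 420 (4.15-fold, limma adjusted p = 1.05e-06) and 1.97 ± 0.23 with Ls-33 (3.93-fold, adjusted p = 1.39e-06). P-values of SNHG19 and the other host genes against 8 h medium use arrays that also served to choose the genes. They are not independent of that choice. Its probe set, 228049_x_at, carries the suffix for probes that may bind other transcripts and is the only one for this gene, so no second reading of SNHG19 was to be had.

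GAS5, named for its build-up in growth-arrested cells, read 7.93 and 7.91 in medium on its main probe set, 227517_s_at. It read 9.49 and 9.48 with NCFM, 9.46 and 9.60 with B. lactis 420, and averaged 9.04 ± 0.058 (SD, n = 2) with Ls-33. Every array with live bacteria was above medium, and the Ls-33 arrays were below those of the other strains. The log2 differences were 1.57 ± 0.094 with NCFM, 1.61 ± 0.094 with B. lactis 420 (3.06-fold, adjusted p = 8.22e-11) and 1.12 ± 0.094 with Ls-33 (2.18-fold, adjusted p = 1.40e-08). SNHG1, the host of 8 box C/D snoRNAs, read 9.26 in both medium arrays, 9.94 and 9.92 with NCFM, 9.89 and 9.81 with B. lactis 420, and 9.42 and 9.63 with Ls-33. SNHG5 read 10.10 and 10.16 in medium, 10.73 and 10.53 with NCFM, 10.60 and 10.54 with B. lactis 420, and 10.46 and 10.44 with Ls-33. These are smaller gaps than those of SNHG19 and GAS5, again without overlap with medium. Called rises were 0.59 ± 0.081 and 0.26 ± 0.081 for SNHG1 (B. lactis 420, then Ls-33, adjusted p = 1.27e-05 and 0.0151) and 0.44 ± 0.068 and 0.32 ± 0.068 for SNHG5 (adjusted p = 4.15e-05 and 9.51e-04). SNHG1 with Ls-33 lost its call without replicate 2 of the Ls-33 arrays (0.16, adjusted p = 0.232) and without either medium array (0.26, adjusted p = 0.0576 and 0.0657).

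Among the box H/ACA hosts SNHG12 and SNHG15 rose with both tested strains. SNHG12 read 5.76 and 5.93 in medium, 7.07 and 7.12 with NCFM, 7.31 and 7.31 with B. lactis 420, and 6.90 and 6.80 with Ls-33. SNHG15, known for a short-lived transcript, read 4.86 and 5.07 in medium, 5.74 and 5.92 with NCFM, 6.27 and 6.28 with B. lactis 420, and 5.52 and 5.80 with Ls-33. For both genes B. lactis 420 gave the highest arrays and medium the lowest. SNHG12 had called rises of 1.46 ± 0.14 (B. lactis 420) and 1.00 ± 0.14 (Ls-33, adjusted p = 8.15e-08 and 8.63e-06), and SNHG15 had rises of 1.31 ± 0.17 and 0.69 ± 0.17 (adjusted p = 5.25e-06 and 0.00280). With NCFM the log2 differences were 1.25 ± 0.14 for SNHG12 and 0.86 ± 0.17 for SNHG15.

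SNHG3 read 2.39 and 2.53 in medium, where its mean of 2.46 was under the floor of 2.75 used for testing, and 3.65 and 3.91 with NCFM, 3.73 and 3.37 with B. lactis 420, and 3.19 and 3.80 with Ls-33. The log2 differences of SNHG3, 1.09 with B. lactis 420 and 1.03 with Ls-33, are given as a description with no test, since they are set against a medium signal not above background. SNHG8 read 6.60 and 7.14 in medium, 7.45 and 7.66 with NCFM, 7.55 and 7.59 with B. lactis 420, and 7.32 and 7.38 with Ls-33, so that its medium arrays lay farther apart than those of any group with live bacteria. It was called at 0.70 ± 0.16 and 0.48 ± 0.16 (adjusted p = 0.00265 and 0.0262). Without replicate 1 of medium SNHG8 lost the call with B. lactis 420 (0.43, adjusted p = 0.0798) and with Ls-33 (0.21, adjusted p = 0.388), and the Ls-33 call was also lost without either Ls-33 array (0.51 and 0.45, adjusted p = 0.0787 and 0.115).

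SNHG7, host of SNORA17A and SNORA17B, went the other way. Its main probe set 229050_s_at read 8.29 and 8.28 in medium, 7.80 and 7.81 with NCFM, 7.68 and 7.92 with B. lactis 420, and 7.73 and 7.57 with Ls-33. All treated arrays were below medium, with log2 differences of -0.48 ± 0.11 with NCFM, -0.48 ± 0.11 with B. lactis 420 (adjusted p = 0.00135) and -0.63 ± 0.11 with Ls-33 (adjusted p = 9.22e-05). The gene's other probe set, 1552729_at, read 4.36 and 4.02 in medium and 4.68 and 4.99 with B. lactis 420, a rise of 0.65 ± 0.20 (adjusted p = 0.0201). The probe sets of SNHG7 thus gave opposite calls with B. lactis 420, and with the mean of both the difference was 0.08 (adjusted p = 0.603) and with Ls-33 -0.18 (adjusted p = 0.222).

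**Figure D1:**
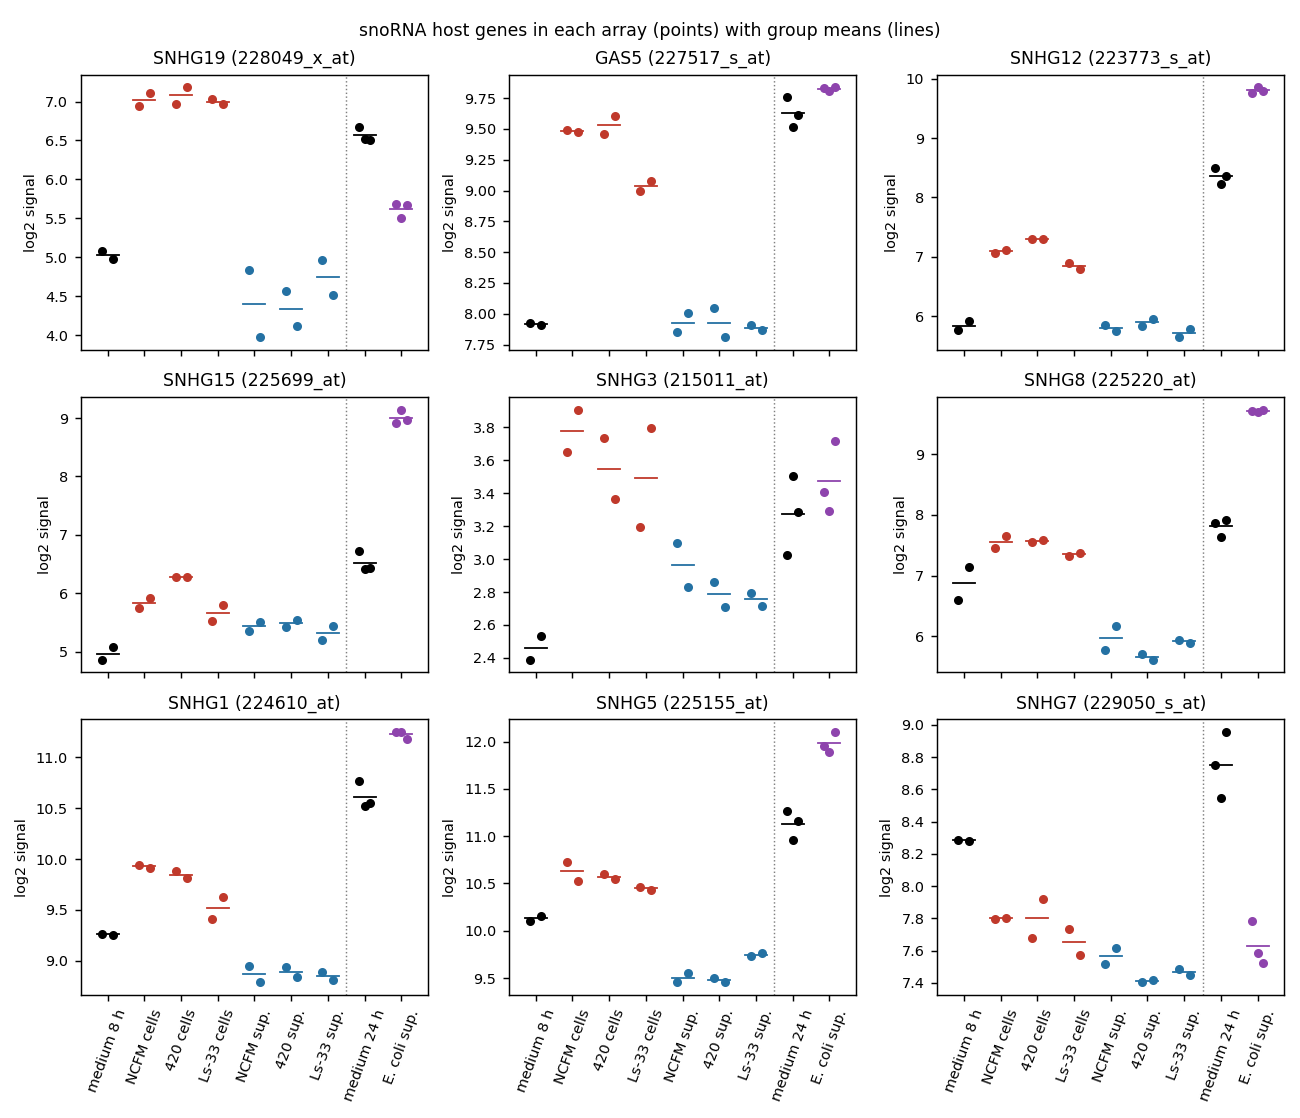
Log2 signal (vertical axis) of each host gene's main probe set in every array (points) by group (horizontal axis), with group means as lines and a dotted line between the probiotic set of 14 arrays and the E. coli set of 6. With live bacteria (red) 8 genes lie above 8 h medium (black) and SNHG7 lies below, for example SNHG19 at 6.94 to 7.19 against 4.97 and 5.08.

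In counts, 8 of the 9 host genes were called higher and 1 lower with B. lactis 420, where 18.4% of all genes tested were called higher and 17.0% lower. With Ls-33 the counts were again 8 and 1, against 19.5% and 19.3%. Without SNHG3, which reached the filter only through its treated groups, they were 7 and 1 of 8 for each strain. At 2-fold or more, a limit added after the values were seen, 5 were called higher with B. lactis 420 (1.74% of all genes) and 4 with Ls-33 (2.16%). Each of these counts includes SNHG3, whose differences are given with no test. Median log2 differences over the host genes were 1.09 and 0.69, against 0.0089 and -0.0079 for all genes tested. Both medians include SNHG3, and the 1.09 with B. lactis 420 is SNHG3's own value, so it is a description only. Both comparisons share the medium arrays with the one used to choose the genes, so they are not independent of it. Beside these differences, the GAPDH 3' minus 5' signal was -0.035 to 0.020 in medium and 0.016 to 0.106 with live bacteria. The mean of the 10 markers of other cell types was 4.50 to 4.61 in medium and 4.31 to 4.48 with live bacteria, and that of the 11 enterocyte markers 10.4 in both medium arrays and 10.2 to 10.5. The part of these, and of the beta-actin 3' signal, in the result was not tested. In bulk RNA, fewer cells of a kind and less RNA per cell cannot be told apart.

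Whether strains of live bacteria differed was asked by comparing Ls-33 with B. lactis 420, neither of which was used in choosing the genes, with the error taken from all 14 arrays. GAS5 was lower with Ls-33 by a log2 difference of -0.49 ± 0.094 (1.41-fold, adjusted p = 0.00393), SNHG15 by -0.62 ± 0.17 (1.54-fold, adjusted p = 0.0369) and SNHG1 by -0.33 ± 0.081 (1.26-fold, adjusted p = 0.0231). In each of these genes both Ls-33 arrays lay below both B. lactis 420 arrays. For SNHG12 the difference was -0.46 ± 0.14 (adjusted p = 0.0518), and for SNHG19 it was -0.08 ± 0.23 (adjusted p = 0.896). The counts were 0 higher and 3 lower of 9, against 2.92% and 2.77% of all genes, and the host genes' median was -0.21 against -0.016. By limma at an unadjusted p under 0.05 they were 0 higher and 4 lower, with no share of all genes counted.

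These strain calls are sensitive to single arrays, with 0 to 2 host genes called when an array was left out. Without replicate 2 of B. lactis 420 or replicate 1 of Ls-33 none was called, and GAS5 then had differences of -0.42 (adjusted p = 0.0538) and -0.45 (adjusted p = 0.0687). SNHG1 lost its call without replicate 1 (-0.29, adjusted p = 0.194) or replicate 2 of B. lactis 420 (-0.36, adjusted p = 0.0548) and without replicate 1 of Ls-33 (-0.22, adjusted p = 0.280). SNHG15 lost its call without any of the 4 arrays, with differences of -0.48 to -0.76 and adjusted p-values of 0.0605 to 0.288. GAS5 also lost it with the mean of its probe sets (-0.30, adjusted p = 0.0734).

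Cell-free supernatants gave a different picture for the same genes. After 24 h with supernatant, SNHG1, SNHG5, SNHG7 and SNHG8 were lower than in 8 h medium with all 3 strains. SNHG12 was close to medium, as was GAS5 on its main probe set. Of the other GAS5 probe sets 2 were called lower with each supernatant, the lowest at -0.72 (NCFM), -0.66 (B. lactis 420) and -0.62 (Ls-33). SNHG8 read 5.77 and 6.16 with NCFM, 5.71 and 5.61 with B. lactis 420, and 5.93 and 5.89 with Ls-33 supernatant, against 6.60 and 7.14 in medium. All 6 arrays were below medium, with log2 differences of -0.90 ± 0.16, -1.21 ± 0.16 and -0.96 ± 0.16 (adjusted p = 0.00144, 7.36e-05 and 5.31e-04). SNHG5 read 9.45 to 9.76 over the 6 supernatant arrays, with differences of -0.62, -0.65 and -0.38 (SE 0.068 each, adjusted p = 7.05e-06, 4.69e-06 and 6.90e-04). SNHG1 differed by -0.39, -0.37 and -0.41 (SE 0.081, adjusted p = 0.00362, 0.00436 and 0.00179), and SNHG7 by -0.72, -0.88 and -0.82 (SE 0.11, adjusted p = 2.04e-04, 2.17e-05 and 3.29e-05). SNHG1 lost its call without replicate 2 of NCFM supernatant (-0.32, adjusted p = 0.0556) and without replicate 2 of B. lactis 420 supernatant (-0.32, adjusted p = 0.0594). SNHG7 lost its call with NCFM supernatant on the mean of its probe sets (-0.36, adjusted p = 0.0582).

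SNHG19, the gene with the widest gap with live bacteria, read 4.84 and 3.97 with NCFM supernatant, 4.56 and 4.11 with B. lactis 420, and 4.97 and 4.52 with Ls-33, against 5.08 and 4.97 in medium. Its supernatant arrays were at or below medium and spread widely within a group. The difference was -0.62 ± 0.23 with NCFM (adjusted p = 0.0881), -0.69 ± 0.23 with B. lactis 420 (adjusted p = 0.0497) and -0.28 ± 0.23 with Ls-33 (adjusted p = 0.451). The B. lactis 420 call of SNHG19 was lost in 7 of 11 alternatives, among them without replicate 2 of that supernatant (-0.47, adjusted p = 0.340) and without replicate 1 or 2 of medium (-0.64 and -0.74, adjusted p = 0.180 and 0.133). Without replicate 1 of NCFM supernatant, SNHG19 was called there (-1.06, adjusted p = 0.0133). SNHG15 was the only host gene called higher with a supernatant, at 0.52 ± 0.17 with B. lactis 420 (adjusted p = 0.0431), and this call was lost when any of the 4 arrays was left out (0.41 to 0.63, adjusted p = 0.0708 to 0.221). GAS5 differed by 0.01, 0.01 and -0.03 (SE 0.094) on its main probe set, and SNHG12 by -0.04, 0.06 and -0.13 (SE 0.14).

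Called lower were 4 of the 9 host genes with NCFM supernatant (6.08% of all genes), 5 with B. lactis 420 (9.34%) and 4 with Ls-33 (8.30%), and called higher were 0 (5.29%), 1 (5.98%) and 0 (8.47%). At an unadjusted p under 0.05 limma had 2, 1 and 1 higher. The share of all genes at that limit was not counted, so these counts are a description. The 2 with NCFM supernatant were SNHG15 and SNHG3, whose medium signal was under the floor. The host genes' medians were -0.39, -0.37 and -0.28, against -0.018, -0.043 and -0.010 for all genes tested. Without replicate 2 of B. lactis 420 supernatant, 3 host genes were called lower there in place of 5. These comparisons share their medium arrays with the one used to choose the genes. Supernatants were applied for 24 h and their medium for 8 h, so supernatant and time cannot be told apart in these counts. Among the 3 supernatants, limma's moderated F-test called none of the 9 genes (adjusted p from 0.331 for SNHG5 to 0.982 for SNHG1), and 0.0337% of all genes. In that F-test 1 of the 9, SNHG5, was under an unadjusted p of 0.05, with no share of all genes counted.

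Live bacteria and supernatant of the same strain were compared directly. The arrays compared were not used to choose the genes, while the error of the fit came from all 14 arrays. With B. lactis 420 all 9 host genes were called higher with bacteria than with supernatant (22.3% of all genes were called higher and 15.7% lower). With Ls-33 7 of 9 were called higher (16.7% and 16.3%). Without SNHG3 these were 8 of 8 and 6 of 8. Log2 differences for SNHG19 were 2.74 ± 0.23 (6.69-fold, adjusted p = 1.98e-08) and 2.26 ± 0.23 (4.78-fold, adjusted p = 2.91e-07), in that order. SNHG8 differed by 1.91 ± 0.16 (3.75-fold, adjusted p = 2.68e-08) and 1.44 ± 0.16 (2.71-fold, adjusted p = 1.23e-06). For GAS5 the values were 1.60 ± 0.094 and 1.15 ± 0.094 (adjusted p = 8.96e-11 and 1.27e-08) and for SNHG12 1.41 ± 0.14 and 1.13 ± 0.14 (adjusted p = 1.22e-07 and 2.21e-06). SNHG5 differed by 1.09 and 0.70 and SNHG1 by 0.96 and 0.67, all called. SNHG3 differed by 0.76 and 0.74, a description with no test, since it reached the filter only through groups in which it was high.

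The remaining genes were SNHG15, at 0.79 ± 0.17 with B. lactis 420 (adjusted p = 8.94e-04) and 0.34 ± 0.17 with Ls-33 (adjusted p = 0.132), and SNHG7, at 0.39 ± 0.11 (adjusted p = 0.00651) and 0.18 ± 0.11 (adjusted p = 0.198). These values of SNHG7 are from 229050_s_at. Its other probe set, 1552729_at, differed from medium by 0.0029, -0.13 and 0.075 with the supernatants of NCFM, B. lactis 420 and Ls-33, none of them called. The medians of the host genes were 1.09 and 0.74, against 0.046 and 0.0046 for all genes. Both include SNHG3, and the 0.74 with Ls-33 is SNHG3's own value. At 2-fold or more 5 genes (2.48% of all) and 4 genes (1.51%) were called higher. Bacteria were applied for 8 h and supernatant for 24 h, so format and time cannot be told apart. Without replicate 1 of B. lactis 420 bacteria SNHG3 differed by 0.58, and without replicate 2 of Ls-33 bacteria by 0.44. SNHG7 lost its call without replicate 2 of B. lactis 420 bacteria (0.27).

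**Figure D2:**
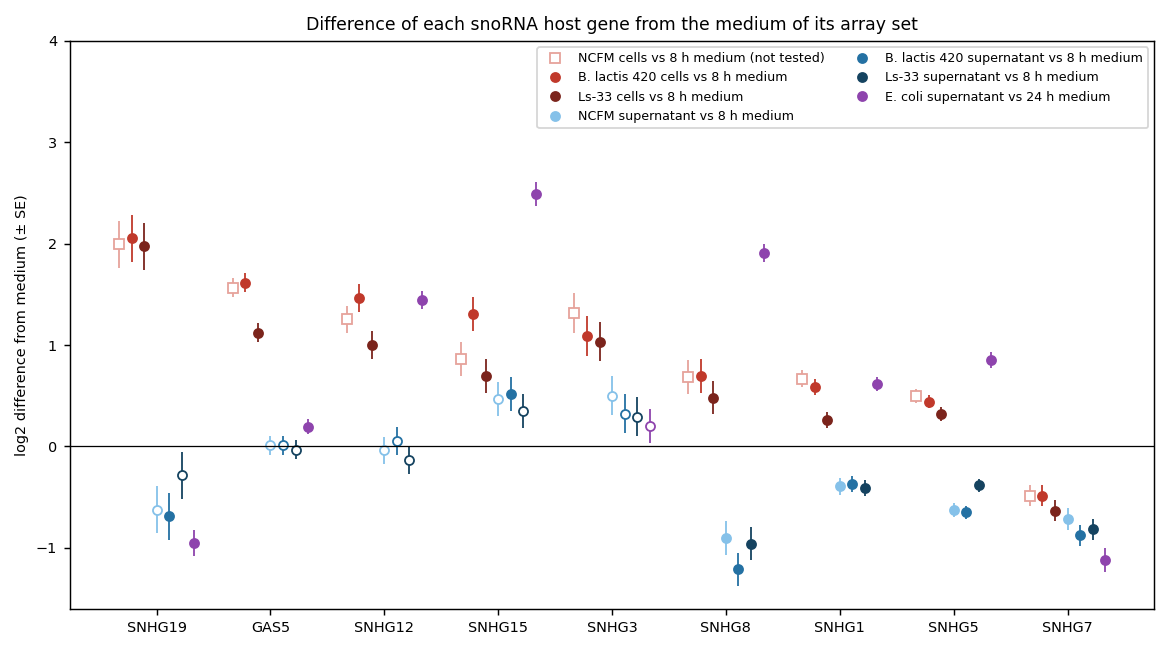
Log2 difference from medium (vertical axis, bars are ± 1 SE of the fit) of each host gene under 7 treatments, with filled circles for called genes, open circles for genes not called and open squares for the NCFM bacteria, which were not tested. Points for live bacteria are above 0 for 8 genes, E. coli supernatant reaches 2.49 for SNHG15, and SNHG19 stands at -0.95 with E. coli supernatant.

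E. coli supernatant was compared with 24 h medium in arrays of their own, none of which was used to choose the genes. On their main probe sets SNHG15, SNHG8 and SNHG12 rose most, SNHG5 and SNHG1 rose less, and SNHG7 and SNHG19 fell. Of the box H/ACA hosts, SNHG15, SNHG8 and SNHG12 thus rose, SNHG7 fell and SNHG3 was not called. Over all their probe sets SNHG12 differed by -0.93 to 2.89 and GAS5, a box C/D host, by 0.19 to 1.12. SNHG15 read 6.72, 6.41 and 6.44 in medium and 8.92, 9.15 and 8.96 with supernatant. SNHG8 read 7.87, 7.63 and 7.92 in medium and 9.71, 9.69 and 9.74 with supernatant, and SNHG12 read 8.49, 8.23 and 8.35 against 9.76, 9.86 and 9.79. In each of them the 3 supernatant arrays lay more than 1 log2 unit above the 3 medium arrays. The log2 differences were 2.49 ± 0.12 for SNHG15 (5.61-fold, adjusted p = 6.13e-09), 1.91 ± 0.092 for SNHG8 (3.75-fold, adjusted p = 8.36e-09) and 1.44 ± 0.085 for SNHG12 (2.72-fold, adjusted p = 3.83e-08).

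The other 6 genes, the box C/D hosts with SNHG7 and SNHG3, were divided. SNHG5 went from 11.27, 10.96 and 11.16 in medium to 11.96, 11.90 and 12.10 (0.85 ± 0.078, adjusted p = 1.43e-06), and SNHG1 from 10.76, 10.52 and 10.55 to 11.25, 11.25 and 11.19 (0.62 ± 0.068, adjusted p = 7.20e-06). SNHG19 fell from 6.67, 6.52 and 6.51 to 5.68, 5.50 and 5.67, a difference of -0.95 ± 0.13 (1.93-fold, adjusted p = 4.65e-05). SNHG7 fell from 8.75, 8.55 and 8.96 to 7.78, 7.59 and 7.52, a difference of -1.12 ± 0.12 (2.17-fold, adjusted p = 4.81e-06). In none of these genes did medium and supernatant arrays overlap. SNHG3 read 3.02, 3.51 and 3.29 in medium and 3.41, 3.29 and 3.72 with supernatant, groups that overlapped (0.20 ± 0.17, adjusted p = 0.308). GAS5, at 0.19 ± 0.075 on its main probe set (adjusted p = 0.0386), lost its call in 9 of 13 alternatives, including when any array other than replicate 1 of the medium was left out (0.14 to 0.20, adjusted p = 0.0795 to 0.113).

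In counts, 6 host genes were called higher and 2 lower with E. coli supernatant, in a comparison that called 36.4% of all genes higher and 27.8% lower. At 2-fold or more 3 were higher (11.9% of all genes) and 1 lower (6.53%). The host genes' median was 0.62, against 0.048. Beside this, the GAPDH 3' minus 5' signal was 0.117 to 0.223 in medium and 0.246 to 0.337 with supernatant, the mean of the 10 markers of other cell types was 4.45 to 4.50 and 4.04 to 4.09, and that of the 11 enterocyte markers was 10.1 in the medium arrays and 10.1 to 10.2 with supernatant. Their part in the result was not tested. SNHG19 was higher with live probiotic bacteria and lower with E. coli supernatant; whether these effects differ was not tested, since the sets differ in time, RNA input and format. The mean of each of the 9 genes' main probe sets was higher in 24 h than in 8 h medium, where array set, RNA input and time cannot be told apart.

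Different probe sets of a gene did not always read alike. GAS5 had 5. With B. lactis 420 bacteria 227517_s_at and 228238_at were called higher (1.61 ± 0.096 and 0.98 ± 0.25, adjusted p = 4.70e-10 and 0.00707), while 224741_x_at and 224841_x_at differed by -0.11 ± 0.078 and 0.01 ± 0.074. Only 1 of the 5, 227517_s_at, was called higher with Ls-33 bacteria. There 228238_at averaged 7.19 against 6.66 in medium and was not called. With Ls-33 bacteria 224741_x_at was called lower (-0.40 ± 0.078, adjusted p = 6.41e-04), as was 224841_x_at (-0.26 ± 0.074, adjusted p = 0.0115), opposite to the main probe set of GAS5 at 1.12 ± 0.096. Both of these were also called lower with the 3 probiotic supernatants, at -0.54 to -0.72, where 227517_s_at was near 0. In the E. coli set they rose by 1.12 ± 0.081 and 1.01 ± 0.063 (adjusted p = 1.32e-07 and 3.32e-08) and 227517_s_at by 0.19 ± 0.077. With the mean of all 5 the differences for live NCFM, B. lactis 420 and Ls-33 were 0.54, 0.54 and 0.25, and -0.33 to -0.38 for the probiotic supernatants, called in each but live NCFM, which was not tested. What holds for GAS5 in the counts above is therefore a statement about 227517_s_at, and the deposited files do not say which exons or introns each probe set reads.

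The GAS5 probe set 1560402_at averaged 2.61 with B. lactis 420 supernatant and 2.30 in 24 h medium, under the floor for testing, and is left out of the next 2 counts. The other 4 were called higher with B. lactis 420 bacteria than with its supernatant, by 0.55 to 1.60, and with E. coli supernatant than in medium, by 0.19 to 1.12. For SNHG12 the 3 probe sets were all higher with live bacteria, by 1.46, 1.41 and 1.31 with B. lactis 420 and 1.00, 1.08 and 0.80 with Ls-33, all called. E. coli supernatant gave diverging values. The set 223774_at went from 5.29, 4.99 and 5.34 to 8.01, 8.22 and 8.07, a rise of 2.89 ± 0.13 (7.44-fold, adjusted p = 2.86e-09), while 228990_at went from 6.35, 6.17 and 6.21 to 5.56, 5.34 and 5.05, a difference of -0.93 ± 0.16 (adjusted p = 2.46e-04). SNHG12 thus had called rises and a called fall in the same arrays. SNHG7's probe sets, which disagreed with B. lactis 420 bacteria, both fell with E. coli supernatant (-1.12 ± 0.12 and -1.06 ± 0.19).

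**Figure D3:**
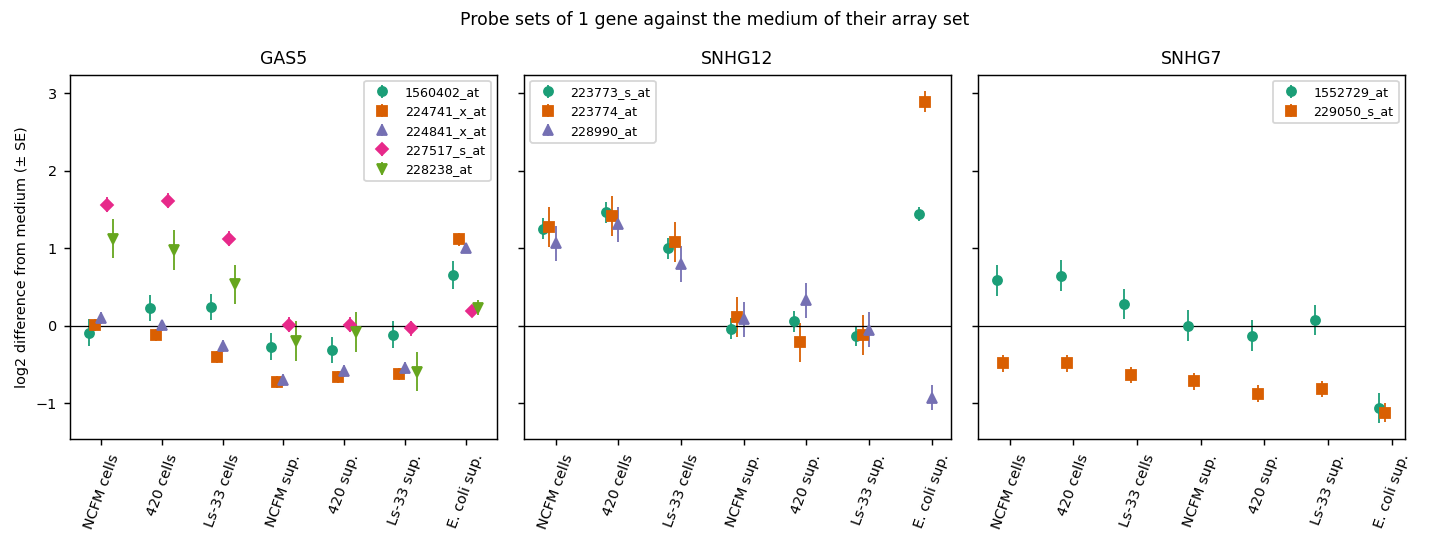
Log2 difference from medium (vertical axis, bars are ± 1 SE) for every probe set of GAS5, SNHG12 and SNHG7 under the 7 treatments (horizontal axis). In GAS5 the sets 227517_s_at and 228238_at lie above the others with live bacteria, and in SNHG12 the sets part only with E. coli supernatant, from -0.93 to 2.89.

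Other host genes served as a comparison. Called higher and lower were 18.4% and 17.0% of all genes tested with B. lactis 420 bacteria, and 19.5% and 19.3% with Ls-33. With E. coli supernatant these shares were 36.4% and 27.8%, and with the probiotic supernatants 5.29% to 8.47% and 6.08% to 9.34%. Of 11 further non-coding host genes tested, 0 were called higher and 3 lower with B. lactis 420 bacteria, and 1 higher and 5 lower with Ls-33, with medians of 0.0091 and -0.25. Lower with both were SNHG32 (-0.60 and -0.55, adjusted p = 2.03e-05 and 4.21e-05), EPB41L4A-AS1 (-0.52 and -0.78, adjusted p = 1.44e-04 and 1.08e-06) and SNHG16 (-0.21 and -0.36, adjusted p = 0.0217 and 2.66e-04). SNHG10 was the gene called higher with Ls-33 (0.73, adjusted p = 0.0188), and it read 1.13 above medium with NCFM bacteria. ZFAS1, the host of SNORD12 family snoRNAs, was lower with Ls-33 (-0.33, adjusted p = 1.26e-04), though the mean of its probe sets gave 0.12. With the 3 supernatants 6, 7 and 7 of the 11 were called lower and 0, 1 and 0 higher, with ZFAS1 at -0.78, -0.89 and -0.85. Between live bacteria and supernatant of a strain, 8 of the 11 were called higher and 1 lower with B. lactis 420, and 7 and 0 with Ls-33, with medians of 0.44 and 0.26. For all genes tested the shares there were 22.3% and 15.7%, and 16.7% and 16.3%. With E. coli supernatant 7 of 10 were higher and 2 lower, and those of lowest adjusted p were SNHG17 (1.01, adjusted p = 6.34e-08), SNHG33 (1.76) and ZFAS1 (0.72). The described genes had been chosen in view of their values with NCFM bacteria, so the gap between the lists is no test.

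**Figure D4:**
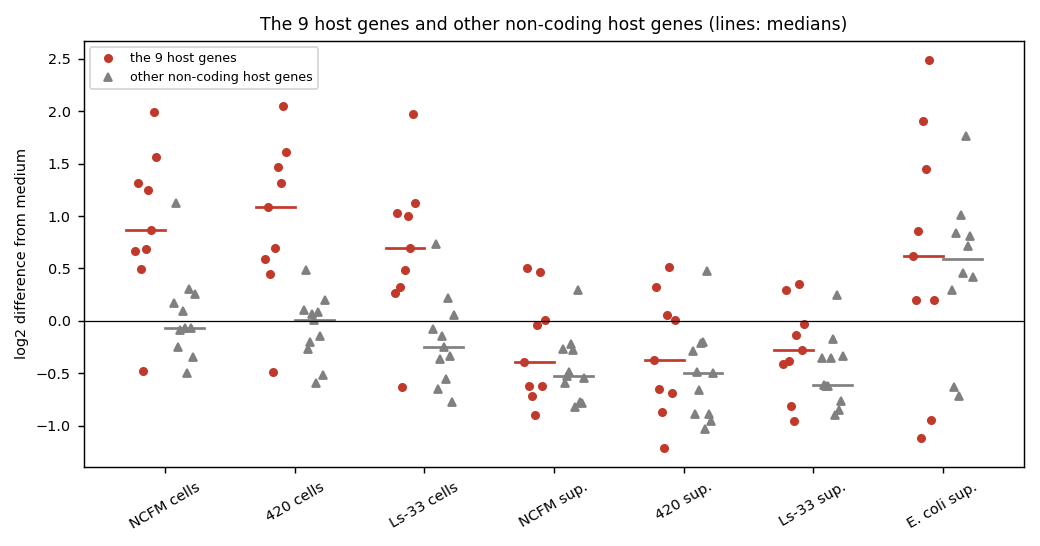
Log2 difference from medium (vertical axis) of the 9 host genes (circles) and of the other non-coding host genes tested (triangles) under 7 treatments, with a line at each median. With live bacteria the medians are 0.86, 1.09 and 0.69 for the 9 genes and -0.069, 0.0091 and -0.25 for the others, while with E. coli supernatant they are 0.62 and 0.59. The 9 include SNHG3, whose own value is the median of 1.09 with B. lactis 420 bacteria.

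Protein-coding snoRNA hosts had medians near 0 with live bacteria. Of 39 tested, 9 were higher and 3 lower with B. lactis 420 bacteria and 7 and 9 with Ls-33, with medians of 0.028 and -0.065. Shares of all genes tested were 18.4% higher and 17.0% lower, and 19.5% and 19.3%, in that order. TAF1D, which belongs to the SL1 complex that starts ribosomal RNA transcription, rose by 1.74 ± 0.13 and 1.58 ± 0.13 (3.35- and 2.99-fold, adjusted p = 4.96e-09 and 1.47e-08). TCP1, a subunit of the chaperonin that folds actin and tubulin, rose by 0.46 and 0.58, and RPL13A, a ribosomal protein, fell with Ls-33 (-0.54). With E. coli supernatant 10 were higher and 12 lower, among them SF3B3, a splicing factor subunit (1.05), and RPL3, a ribosomal protein (-0.60). There 36.4% of all genes tested were called higher and 27.8% lower. With the supernatants of the probiotics 9, 9 and 11 were lower and 1, 2 and 1 higher. Over the 3 supernatants 6.08% to 9.34% of all genes were called lower and 5.29% to 8.47% higher.

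Of 11 proteins that assemble snoRNAs into particles 8 were called higher and 0 lower with B. lactis 420, and 8 and 1 with Ls-33, with medians of 0.50 and 0.46. Shares of all genes tested were 18.4% higher and 17.0% lower, and 19.5% and 19.3%, in that order. SHQ1, which chaperones the pseudouridine synthase dyskerin, rose by 0.81 and 0.91 (adjusted p = 1.17e-05 and 2.12e-06), RPAP3, part of the R2TP chaperone complex, by 0.50 and 0.68, and NAF1, an assembly factor of box H/ACA particles, by 1.16 with Ls-33. Of the 6 core particle proteins tested 3 were higher and 1 lower with B. lactis 420, and 3 and 2 with Ls-33. NOP58, a core protein of box C/D particles, rose by 0.51 and 0.53, and NHP2, of box H/ACA particles, by 0.47 and 0.29, while FBL, the methyltransferase fibrillarin, fell with Ls-33 (-0.29). In the E. coli set 8 assembly factors were higher and 2 lower, among them NUFIP1 (1.41), and 3 core proteins were higher and 2 lower, among them NOP58 (0.92). There 36.4% of all genes tested were called higher and 27.8% lower. With the probiotic supernatants 1, 1 and 2 assembly factors were higher and 1, 1 and 1 lower, and of the core proteins 0 were higher and 2, 2 and 3 lower. Over the 3 supernatants 5.29% to 8.47% of all genes were called higher and 6.08% to 9.34% lower.

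Genes that degrade host transcripts and intron remnants were given in the same way. Of 8 nonsense-mediated decay factors 2 were higher and 0 lower with B. lactis 420 bacteria, and 2 and 1 with Ls-33. EIF4A3, of the exon junction complex, rose by 0.32 with each strain, and RBM8A by 0.34 and 0.30, though with the mean of its probe sets RBM8A turned to -0.10 and -0.12. Of 17 nuclear decay genes 2 were higher and 4 lower with B. lactis 420, and 5 and 2 with Ls-33. Shares of all genes tested were 18.4% higher and 17.0% lower, and 19.5% and 19.3%, in that order. Medians with B. lactis 420 and Ls-33 bacteria were 0.087 and -0.032 for the decay factors and 0.058 and -0.016 for the nuclear decay genes. EXOSC3, an exosome cap subunit, rose by 1.04 ± 0.20 and 1.13 ± 0.20 (adjusted p = 3.77e-04 and 1.45e-04), and EXOSC1, also of the cap, fell with Ls-33 (-0.55). With E. coli supernatant 5 of the 8 and 9 of the 17 were higher, 0 and 1 lower, with medians of 0.57 and 0.35. There 36.4% of all genes tested were called higher and 27.8% lower. Among those higher were RBM8A (1.07), ZCCHC8 (1.39), a subunit of an exosome adaptor, and EXOSC9 (1.66), an exosome ring subunit. With the probiotic supernatants 1, 0 and 0 decay factors and 1, 0 and 1 nuclear decay genes were higher, and 1, 0 and 0, and 0, 1 and 0 lower.

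Likeness between the genes was measured over the 14 probiotic arrays, which include the NCFM and medium arrays used to choose the genes, so the values are a description. The Pearson correlation with SNHG19 was 0.95 for GAS5, 0.94 for SNHG12 and SNHG1, 0.93 for SNHG5, 0.91 for SNHG8, 0.83 for SNHG3 and 0.68 for SNHG15, and 0.25 for SNHG7. The genes outside the list most like SNHG19 were KHDC4 (r = 0.985), NABP1, HES1, FANCL, CLK1 and GTF3A (r = 0.977), where CLK1 is a kinase of splicing factors and HES1 a Notch target. Most like the mean of the 9 were PGS1 (r = 0.989), ARGLU1, LUC7L3, NPPB, NSUN5P1 and PODXL (r = 0.985), where ARGLU1 and LUC7L3 act in splicing. These correlations are over arrays that fall into groups and share normalization, and 11% of all genes tested had r of 0.8 or more with SNHG19 and 11.9% with the mean, so they describe a pattern common on these arrays.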

How the data were processed

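Gene expression was measured in Caco-2 cells on 20 Affymetrix HG-U133 Plus 2.0 arrays. The deposited values are log2 probe-set signals from the authors' RMA run, as the submitters' processing notes name it. Its version is not given in the sources used here, nor whether the arrays of both sets went through it in 1 run, and no scanner files were used. Of 54675 probe sets, 62 were controls, 41097 carried 1 gene symbol, 1801 several and 11721 none. Symbols were updated through Entrez identifiers to RefSeq (GRCh38.p14), and 54 probe sets kept the annotated symbol. A probe set with several symbols was given to a gene where the other symbols were all snoRNAs (96 probe sets), a rule adopted after the annotation was seen.

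Each of 19808 genes was read by its probe set of highest mean over all arrays, leaving out the suffix _x_at where it had others. Tested were the 11885 genes in each set with a mean at or above the 40th percentile over named genes, the floor of 2.75 (probiotic set) or 2.78 (E. coli set). Tests came from limma 3.58.1 under R 4.3.3, using lmFit and a trended eBayes, with 1 fit over the 14 probiotic arrays and 1 over the 6 E. coli arrays, with Benjamini-Hochberg adjustment over all genes tested and calls at an adjusted p under 0.05. A 2-fold limit was added after the values were seen. Groups came from the labels. All 9 genes were named whatever their values, with up to 3 called genes of lowest adjusted p per other list and comparison, of which some are given, and the 6 genes most like SNHG19 and most like the mean of the 9. The genes, lists and tests were chosen with earlier results of these data known.

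On simulated data with changed genes among 11885, 86.6% of 2-fold and 38.8% of 1.5-fold changes were called for Ls-33 bacteria against medium with 8 false calls, and 82.1% and 58.2% for E. coli supernatant with 4. Far fewer genes were changed there than the 19.5% called higher and 19.3% lower with Ls-33 bacteria. Since the rates depend on that share, they do not give the sensitivity of the real comparisons. The alternatives left the filter out or set it at the 60th percentile, dropped the trend, or used joint quantile normalization, every probe set, the mean of a gene's probe sets, only the groups compared, all 20 arrays in 1 fit, a block for the replicate number, or all arrays but 1 in turn.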

Additional observations from a re-analysis of the deposited data

Results flagged for a closer look

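Differences between groups that received bacteria in different ways were tested directly, as contrasts in the fit over all 14 probiotic arrays. In limma 19 of these values for single host genes passed an adjusted p of 0.05, counting SNHG3, which is given with no test. Of all genes tested, 2.92% were called higher and 2.77% lower with Ls-33 against B. lactis 420 bacteria. Between bacteria and supernatant these shares were 22.3% and 15.7% for B. lactis 420 and 16.7% and 16.3% for Ls-33. Between live bacteria of the Ls-33 and B. lactis 420 strains (Ls-33 minus B. lactis 420, log2) the called values were -0.33 for SNHG1, -0.62 for SNHG15 and -0.49 for GAS5, each with both Ls-33 arrays below both B. lactis 420 arrays. These strain calls were sensitive to single left-out arrays.

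Between live B. lactis 420 and its supernatant the log2 differences were 0.96 for SNHG1, 0.76 for SNHG3, 1.09 for SNHG5, 0.39 for SNHG7, 1.91 for SNHG8, 1.41 for SNHG12, 0.79 for SNHG15, 2.74 for SNHG19 and 1.60 for GAS5. Between live Ls-33 and its supernatant they were 0.67 for SNHG1, 0.74 for SNHG3, 0.70 for SNHG5, 1.44 for SNHG8, 1.13 for SNHG12, 2.26 for SNHG19 and 1.15 for GAS5. Bacteria and supernatant also differ in time, which cannot be told apart from format here.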

How the results depend on the processing

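Of 59 calls of host genes in the 9 tested pairwise comparisons, 42 were kept under every alternative run on single genes. The 59 include calls of SNHG3, which is given above with no test. With the mean of all probe sets, called lower went from 1 to 0 with B. lactis 420 and with Ls-33 bacteria, and called higher from 0 to 1 with NCFM supernatant. Signs turned under it for SNHG7 with NCFM and B. lactis 420 bacteria (0.052 and 0.081), for RBM8A with B. lactis 420 and Ls-33 bacteria and Ls-33 bacteria against supernatant (-0.10, -0.12 and -0.041), for ZFAS1 with Ls-33 bacteria (0.12) and for GAS5 with NCFM and B. lactis 420 supernatant (-0.38 and -0.33), since probe sets of these genes disagree. With every probe set tested, 2 genes were called lower with Ls-33 bacteria in place of 1. The 1 gene called higher with B. lactis 420 supernatant became 0 with every probe set, with no filter and with only the groups compared; the cause was not tested.

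Leaving out each array in turn gave 0 called higher and 3 to 5 called lower with B. lactis 420 supernatant, and 0 to 2 called lower with Ls-33 against B. lactis 420 bacteria. Higher calls then ranged from 7 to 8 with B. lactis 420 bacteria, 6 to 7 with Ls-33 bacteria and 5 to 6 with E. coli supernatant. The replicate numbers do not pair the arrays (correlations of deviations from -0.103 to 0.057 over 42 pairs of the probiotic set and from -0.138 to 0.036 over 3 of the E. coli set). With the replicate number as a block, 5 host genes in place of 6 were called higher with E. coli supernatant, where GAS5 was lost (0.19, adjusted p = 0.0627), and the counts of the other comparisons stayed at their values (8 higher and 1 lower with each of B. lactis 420 and Ls-33 bacteria). Groups of 2 arrays and a signal near the floor for SNHG3 limit what could be detected.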
